A study of Mus musculus with 8 samples.

Results

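The genes described here encode the chains of collagens, laminins and nidogens, the main structural proteins of the extracellular matrix. All gene rows whose symbol was Col, a number, a and a number, or Lam, a letter a, b or c and a digit, were taken, together with Nid1 and Nid2. This gave 57 genes of the 27998 rows in each count table. They comprised 11 fibrillar collagen chains, 19 basement membrane chains, 2 multiplexins, 6 beaded filament chains, 9 FACIT chains (collagens that sit on the surface of fibrils), 4 network or anchoring chains, 4 transmembrane chains and 2 others.

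The study followed mouse embryonic stem cells differentiating as embryoid bodies, with and without the TET dioxygenases, which oxidise methylated cytosine. At day 5 it had 1 single-cell RNA library for wild type (WT) and 1 for the Tet triple knockout (TKO), called the WT and TKO libraries here after their labels. These 2 of the 8 samples were used, and 6 pull-down samples were not analysed here. Both came from the stem cell line E14-NKX2-5-EmGFP, which had been kept with leukaemia inhibitory factor on embryonic fibroblast feeders arrested with mitomycin C. Differentiation started with 2 days in hanging drops without that factor and went on for 3 days in suspension, with no treatment in either group. The labels do not say how many knockout clones or cultures entered a library, or whether feeders were removed. With 1 library per group no test was possible, and the library and the genotype cannot be told apart. All intervals are exact 95% intervals and cover counting error only, except those of median log2 ratios in the closing section. Differences below are descriptions of these libraries.

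After filtering, 4389 WT cells held 37503810 unique molecular identifiers (UMIs, counts of captured RNA molecules) and 3196 TKO cells held 33483998. The median cell had 7847 UMIs in the WT library and 9678 in the TKO one. Levels are given as CPM, UMIs divided by the library's total and multiplied by 1000000, with no correction for transcript length. Fold differences therefore compare a gene, or the same set of genes, across libraries and cells. Where different genes are set side by side, as shares or sums, the values are of UMIs and hold any difference in detection between genes. Tet1, Tet2 and Tet3 read 12.3, 6.83 and 29.1 CPM in the WT library and 22.8, 4.60 and 20.3 CPM in the TKO one. These counts do not check the label, because no source used here gives the deleted parts of the genes. The labels call the cells embryonic stem cells. The stem cell genes Pou5f1 (8.51 and 101 CPM) and Nanog (1.49 and 3.02 CPM) were read, but most cells fell in clusters led by genes of differentiated cells. The tables' headers shared 21 barcode sequences.

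Collagens are triple helices of 3 chains. Fibrillar collagens assemble into the tension-bearing fibres of connective tissue and are made mainly by mesenchymal cells. Type IV collagen, laminins and nidogens form the thin sheets of basement membrane that underlie epithelia and surround vessels, and they are the first matrix proteins of the early embryo. A laminin is built from 1 alpha, 1 beta and 1 gamma chain, and the alpha chain sets much of what cells recognise in it.

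Of the 57 genes, 33 had at least 100 UMIs over both libraries, 13 had between 10 and 77, and 11 had fewer than 10. Of the 46 with at least 10 UMIs, 26 were at least 2-fold lower in the TKO library, 7 were at least 2-fold higher and 13 lay within 2-fold. Among all 15344 genes with at least 10 UMIs, 12.3% were at least 2-fold lower and 13.5% at least 2-fold higher. The median log2 ratio of TKO to WT was -1.20 over the 46 chains and 0.14 over all 15344 genes. The subfamilies differed widely from one another, as the plot of levels by library shows. Where a pair of UMI, CPM or cell numbers is given without naming the libraries, the WT value comes first. A fold difference without a direction means higher in the WT library, and a ratio is TKO over WT. A summed library cannot separate fewer cells of a type from less RNA per cell, which is taken up by cell kind further on.

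**Figure D1:**
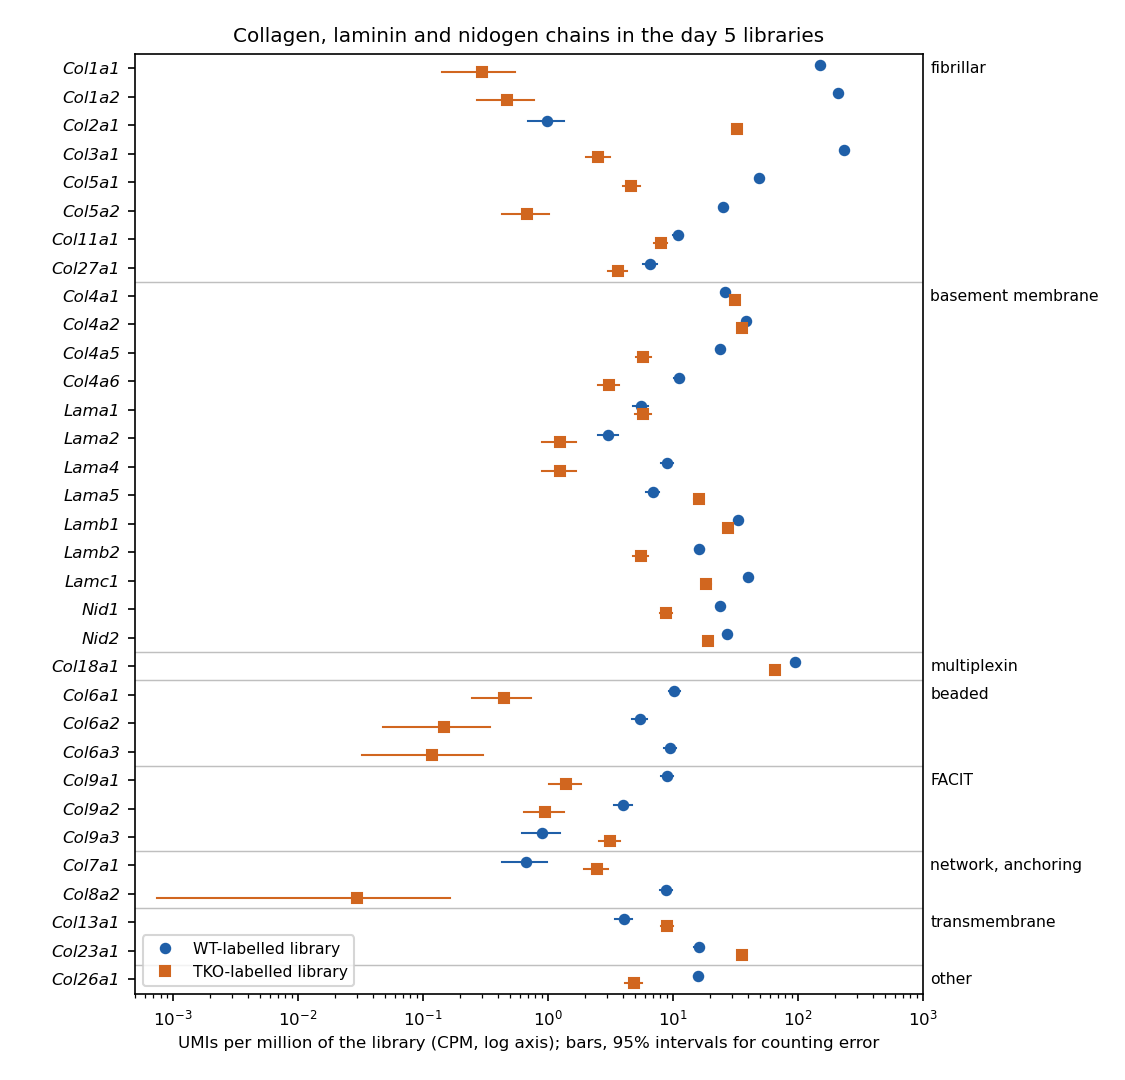
CPM (log axis) of the 33 chain genes with at least 100 UMIs in the WT (circles) and TKO (squares) library, 1 library each, with bars for the 95% counting interval, grouped by subfamily. Type I, III, V and VI chains and Col8a2 lie far apart, Col2a1 lies apart in the opposite direction, and Col4a1, Col4a2, Lama1 and Lamb1 nearly coincide.

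The fibrillar chains had the largest gap in summed CPM of any subfamily, although the sum of the beaded filament chains differed by a larger factor, 35.4-fold (23.6 to 55.5). The fibrillar chains summed to 693 CPM (685 to 701) in the WT library and 54.1 CPM (51.7 to 56.7) in the TKO one, a 12.8-fold difference (12.2 to 13.4). Of the 9 with at least 10 UMIs, 5 were at least 2-fold lower, 2 were higher and 2 lay within 2-fold, with a median log2 ratio of -3.39. Among all genes the shares were 12.3% lower and 13.5% higher. Type I collagen, the main protein of bone, skin and tendon, accounted for much of the fibrillar difference. Its alpha 1 chain Col1a1 had 5691 UMIs (152 CPM) in the WT library and 10 UMIs (0.299 CPM) in the TKO one, a 508-fold difference (276 to 1060.1). The alpha 2 chain Col1a2 had 7895 UMIs (211 CPM) and 16 UMIs (0.478 CPM), a 441-fold difference (271 to 771). Both type I chains were thus close to undetected in the TKO library.

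Type III collagen, the fibre of vessel walls and soft tissue, is encoded by Col3a1 alone. It had 8878 UMIs (237 CPM) and 85 UMIs (2.54 CPM), a 93.3-fold difference (75.3 to 117). Type V collagen starts the assembly of type I fibres, and its chains were lower to differing extents. Col5a1 had 1849 UMIs (49.3 CPM) and 157 UMIs (4.69 CPM), a 10.5-fold difference (8.93 to 12.5). Col5a2 had 951 UMIs (25.4 CPM) and 23 UMIs (0.687 CPM), a 36.9-fold difference (24.5 to 58.5). The intervals of the type V chains do not overlap, so Col5a1 was lower by a smaller factor than Col5a2. The proportion of the type I chains did not visibly differ: Col1a2 made up 58.1% (57.3 to 58.9) of type I UMIs in the WT library and 61.5% (40.6 to 79.8) in the TKO one.

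Type II collagen went the other way. Col2a1, the fibre of cartilage and of the embryonic notochord sheath, had 37 UMIs (0.987 CPM) in the WT library and 1101 UMIs (32.9 CPM) in the TKO one, 33.3-fold higher (24 to 47.6). It held 0.142% of the fibrillar UMIs of the WT library and 60.7% of those of the TKO one. Without Col2a1 the fibrillar sums were 692 and 21.3 CPM, a 32.5-fold difference (30.2 to 35.1). Col11a1, which forms mixed fibres with type II collagen, differed less, with 416 UMIs (11.1 CPM) and 269 UMIs (8.03 CPM), a 1.38-fold difference (1.18 to 1.62). Its partner chain Col11a2 had 16 and 30 UMIs, 2.10-fold higher in the TKO library (1.11 to 4.13). Col27a1, a fibrillar chain of cartilage, had 247 UMIs (6.59 CPM) and 122 UMIs (3.64 CPM), a 1.81-fold difference (1.45 to 2.26). Col24a1 had 7 and 0 UMIs, and Col5a3 had 2 and 0.

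All 57 chain genes had a RefSeq gene position. Promoter sequence was read for the 41 with an entry in the promoter table used (build GRCm38.p6). Among the chains without one were Col1a1, Col2a1 and Col5a2. The 250 bases before each start were searched, and CpG dinucleotides, the sites that TET enzymes act on when methylated, were counted. The 8 fibrillar promoters held between 0 and 28 CpGs (median 12.5), against a median of 6 over all 32851 promoters of the table. Below are the bases before 3 of the fibrillar genes that were at least 10-fold lower, shown because their CpG content differs so much, with each CpG in capitals. They lie at chr6:4505418-4505617 (Col1a2, plus strand), chr1:45311338-45311537 (Col3a1, plus strand) and chr2:27886181-27886380 (Col5a1, plus strand).
Col1a2: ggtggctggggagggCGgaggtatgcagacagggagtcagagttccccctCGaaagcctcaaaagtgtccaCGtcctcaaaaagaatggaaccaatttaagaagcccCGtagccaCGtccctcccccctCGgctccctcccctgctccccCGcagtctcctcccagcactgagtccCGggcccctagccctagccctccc
Col3a1: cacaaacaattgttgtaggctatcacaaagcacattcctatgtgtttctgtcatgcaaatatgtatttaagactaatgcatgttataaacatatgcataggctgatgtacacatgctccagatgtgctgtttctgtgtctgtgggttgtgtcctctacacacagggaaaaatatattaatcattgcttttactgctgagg
Col5a1: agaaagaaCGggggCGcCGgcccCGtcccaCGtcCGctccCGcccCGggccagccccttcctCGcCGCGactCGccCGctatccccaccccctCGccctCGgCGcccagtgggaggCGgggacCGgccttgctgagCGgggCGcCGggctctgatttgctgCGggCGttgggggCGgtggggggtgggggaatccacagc
These windows of 200 bases held 8, 0 and 24 CpGs. The Col3a1 window also carried a TATAAA match on the 250-base search, a motif present in 12.4% of all promoters, and the Col1a2 window a CCAAT match whose first base lies 109 bases before the start. CCAAT, on either strand, was present in 33.8% of all promoters and in 3 of the 8 fibrillar ones, and GGGCGG in 32.7% and in 6 of 8. Of the chains shown, Col3a1 had 0 CpGs in its window and Col5a1 had 24. Both were at least 10-fold lower in the TKO library. Whether CpG content bears on these levels was not tested. Methylation was not analysed here. Col3a1 and Col5a2 are neighbours on chromosome 1, with 24624 bases between the annotated genes.

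The basement membrane chains were much closer between the libraries. They summed to 268 CPM (263 to 274) in the WT library and 182 CPM (178 to 187) in the TKO one, a 1.47-fold difference (1.43 to 1.52). Of the 17 with at least 10 UMIs, 9 were at least 2-fold lower, 1 was higher and 7 lay within 2-fold, and the median log2 ratio was -1.06. The chain at that median was Lamb3, with only 10 and 4 UMIs. Over chains with at least 50 UMIs the median was -0.81, and with median-of-ratios size factors it was -1.20. Among all genes the shares were 12.3% lower and 13.5% higher. The fibrillar share of the UMIs of both groups together was 72.1% (71.6 to 72.6) in the WT library and 22.9% (22.0 to 23.8) in the TKO one. That share needs no scaling between the libraries. Without Col2a1 it was 72.1% and 10.4%.

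Type IV collagen is the scaffold of every basement membrane, and its genes lie in pairs that share a start region. The broadly made pair was close to level. Col4a1 had 987 UMIs (26.3 CPM) in the WT library and 1051 UMIs (31.4 CPM) in the TKO one, 1.19-fold higher (1.09 to 1.30). Col4a2 had 1455 UMIs (38.8 CPM) and 1205 UMIs (36.0 CPM), a TKO to WT ratio of 0.928 (0.859 to 1.00). The pair on the X chromosome was lower. Col4a5 had 896 UMIs (23.9 CPM) and 196 UMIs (5.85 CPM), a 4.08-fold difference (3.49 to 4.79). Col4a6 had 421 UMIs (11.2 CPM) and 103 UMIs (3.08 CPM), a 3.65-fold difference (2.94 to 4.57). The ratios of Col4a5 and Col4a6 overlap in their intervals, and Col4a6 made up 32.0% (29.5 to 34.6) of the pair's UMIs in the WT library and 34.4% (29.1 to 40.1) in the TKO one. For the other pair the proportion shifted: Col4a2 made up 59.6% (57.6 to 61.5) and 53.4% (51.3 to 55.5). The third pair, of kidney and lung membranes, was scarce, with 14 and 11 UMIs for Col4a4 and 3 and 0 for Col4a3.

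These first 2 pairs stand head to head in RefSeq. The annotated genes Col4a1 (minus strand) and Col4a2 (plus strand) overlap by 85 bases on chromosome 8, and 1274 bases separate Col4a6 (minus strand) from Col4a5 (plus strand) on the X chromosome. The bases next to each gene of the X pair, inside the stretch that separates them, are given because both genes were lower by a similar factor, with each CpG in capitals. They lie at chrX:141475170-141475369 (Col4a5, plus strand) and chrX:141474096-141474295 (Col4a6, minus strand).
Col4a5: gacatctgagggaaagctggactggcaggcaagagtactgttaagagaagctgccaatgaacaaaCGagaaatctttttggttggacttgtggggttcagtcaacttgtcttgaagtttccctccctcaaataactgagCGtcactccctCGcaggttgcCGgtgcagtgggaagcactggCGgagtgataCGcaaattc
Col4a6: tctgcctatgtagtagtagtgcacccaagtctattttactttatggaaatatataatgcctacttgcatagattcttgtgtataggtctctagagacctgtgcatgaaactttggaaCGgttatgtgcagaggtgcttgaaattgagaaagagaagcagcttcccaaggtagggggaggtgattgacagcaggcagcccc
They held 6 and 1 CpGs in 200 bases, and the Col4a5 bases also hold a CCAAT match, left in lower case. Because the other pair overlaps, only 30 bases around its CCAAT matches are shown, with CCAAT or its reverse ATTGG in capitals. They lie at chr8:11312954-11312983 (Col4a1, minus strand) and chr8:11312761-11312790 (Col4a2, plus strand).
Col4a1: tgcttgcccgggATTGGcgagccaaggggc
Col4a2: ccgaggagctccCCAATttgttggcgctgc
The 250 bases before Col4a1 and Col4a2 held 31 and 26 CpGs, and those before Col4a5 and Col4a6 held 10 and 3. Among the 11 basement membrane promoters found, 5 held CCAAT and 6 held GGGCGG, and CpGs ranged from 0 to 31 (median 10). CCAAT was found before Col4a1, Col4a2 and Col4a5 and not before Col4a6. The level pair had more CpGs before its starts than the lower pair, a description over 4 genes.

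Laminin chains summed to 116 CPM (113 to 120) in the WT library and 77.6 CPM (74.6 to 80.6) in the TKO one. The alpha chains differed most from one another. Lama1, the alpha chain of the earliest embryonic laminin, had 209 UMIs (5.57 CPM) and 194 UMIs (5.79 CPM), a ratio of 1.04 (0.851 to 1.27), whose log2 value of 0.06 became -0.08 with size factors. Lama5, the alpha chain typical of epithelia, had 261 UMIs (6.96 CPM) and 542 UMIs (16.2 CPM), 2.33-fold higher in the TKO library (2.00 to 2.71). Lama4, the alpha chain of vessels and mesenchyme, had 337 UMIs (8.99 CPM) and 42 UMIs (1.25 CPM), a 7.16-fold difference (5.19 to 10.1). Lama2, the alpha chain of muscle membranes, had 115 UMIs (3.07 CPM) and 42 UMIs (1.25 CPM), a 2.44-fold difference (1.70 to 3.57). Lama3 had 3 and 5 UMIs. Lama5 made up 43.6% (39.6 to 47.7) of Lama5 and Lama4 UMIs in the WT library and 92.8% (90.4 to 94.8) in the TKO one, so the mix of these alpha chains differed between the libraries.

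The beta and gamma chains differed less. Lamb1, the beta chain of most embryonic laminins, had 1261 UMIs (33.6 CPM) and 936 UMIs (28.0 CPM), a 1.20-fold difference (1.10 to 1.31). Lamb2, the beta chain of kidney and synaptic membranes, had 613 UMIs (16.3 CPM) and 186 UMIs (5.55 CPM), a 2.94-fold difference (2.49 to 3.49). Its share of Lamb1 and Lamb2 UMIs was 32.7% (30.6 to 34.9) and 16.6% (14.4 to 18.9). Lamc1, the commonest gamma chain, had 1515 UMIs (40.4 CPM) and 623 UMIs (18.6 CPM), a 2.17-fold difference (1.98 to 2.39). Lamb3, a beta chain of epithelial laminin, had 10 and 4 UMIs. Lamc3 had 10 and 0. The nidogens bridge laminin and type IV collagen. Nid1 had 903 UMIs (24.1 CPM) and 298 UMIs (8.90 CPM), a 2.71-fold difference (2.37 to 3.09), and Nid2 had 1017 UMIs (27.1 CPM) and 643 UMIs (19.2 CPM), a 1.41-fold difference (1.28 to 1.56). Nid1 thus made up less of the nidogen UMIs in the TKO library, 31.7% (28.7 to 34.7) against 47.0% (44.8 to 49.3).

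The multiplexin Col18a1, a basement membrane collagen that carries endostatin, had 3611 UMIs (96.3 CPM) and 2223 UMIs (66.4 CPM), a 1.45-fold difference (1.38 to 1.53). Its relative Col15a1 had 22 and 3 UMIs, a TKO to WT ratio of 0.153 (0.0293 to 0.508). The beaded filament chains, which make the type VI microfibrils around mesenchymal cells, were lower in all 3 members with at least 10 UMIs. Col6a1 had 386 UMIs (10.3 CPM) and 15 UMIs (0.448 CPM), a 23.0-fold difference (13.8 to 41.5). Col6a2 had 206 UMIs (5.49 CPM) and 5 UMIs (0.149 CPM), a 36.8-fold difference (15.5 to 114). Col6a3 had 358 UMIs (9.55 CPM) and 4 UMIs (0.119 CPM), a 79.9-fold difference (30.9 to 295). The intervals of the 3 type VI chains overlap. Col6a6 had 1 UMI, and Col6a4 and Col6a5 had 0 in both libraries.

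FACIT chains were at least 2-fold lower in 6 of the 8 with at least 10 UMIs, higher in 1 and within 2-fold in 1. Of all genes, 12.3% were at least 2-fold lower and 13.5% higher. Type IX collagen coats cartilage fibres, and its chains did not move together. Col9a1 had 340 UMIs (9.07 CPM) and 47 UMIs (1.40 CPM), a 6.46-fold difference (4.75 to 8.96), and Col9a2 had 151 UMIs (4.03 CPM) and 32 UMIs (0.956 CPM), a 4.21-fold difference (2.86 to 6.38). Col9a3 had 34 UMIs (0.907 CPM) and 106 UMIs (3.17 CPM), 3.49-fold higher in the TKO library (2.35 to 5.30). Col12a1, Col14a1, Col16a1 and Col22a1 had 32 to 67 UMIs in the WT library and 7 to 13 in the TKO one. Col20a1 had 11 and 5, and Col19a1 had 0 in both.

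Col8a2, a network collagen of the corneal endothelium's membrane, had 332 UMIs (8.85 CPM) in the WT library and 1 UMI in the TKO one, a ratio of 0.00337 (8.52e-05 to 0.0189). Its partner Col8a1 had 11 and 18 UMIs. Col7a1, the anchoring fibril of skin epithelium, had 25 UMIs (0.667 CPM) and 83 UMIs (2.48 CPM), 3.72-fold higher in the TKO library (2.35 to 6.07). Transmembrane chains, which stay in the cell surface, were the only subfamily whose sum was higher in the TKO library among the 7 named subfamilies, at 20.7 and 46.0 CPM. Col23a1 had 606 UMIs (16.2 CPM) and 1205 UMIs (36.0 CPM), 2.23-fold higher (2.02 to 2.46). Col13a1, a collagen of the neuromuscular junction, had 153 UMIs (4.08 CPM) and 304 UMIs (9.08 CPM), 2.23-fold higher (1.83 to 2.72). Col25a1 had 17 and 29 UMIs and Col17a1 had 0 and 3. Of the remaining genes, Col26a1 had 602 UMIs (16.1 CPM) and 164 UMIs (4.90 CPM), a 3.28-fold difference (2.75 to 3.92), Col28a1 had 0 and 1, and Col10a1 had 0 in both.

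To see which cells held these chains, cells of both libraries were clustered on variable genes from which all 57 chains had been removed, giving 15 clusters. A cluster was named only where at least 3 markers of a list were among its 10 leading genes, and the others are called by leading genes. The libraries hardly overlapped: the clusters led by Hpgd, Lum and Dcn (1433 WT and 2 TKO cells), by Bnc1 and Upk3b (1084 and 12) and by Pitx1 and Hoxc9 (484 and 4) were nearly all WT. The definitive endoderm-like (46 and 1079), head mesenchyme-like (6 and 892), cardiomyocyte-like (33 and 654) and larger pluripotent-like (9 and 310) clusters were nearly all TKO. A cluster almost wholly from 1 library may be that library rather than a cell type. Values are given for a cluster and library with at least 50 cells.

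Within the WT library the fibrillar chains were highest in 3 large unnamed clusters. They summed to 1039 CPM (1020.4 to 1059) in the Lum and Dcn cluster, 837 CPM in the Bnc1 and Upk3b cluster and 750 CPM (724 to 777) in the Pitx1 and Hoxc9 cluster. They summed to 107 CPM in endothelial-like cells, 78.1 CPM in extraembryonic endoderm-like cells and 29.6 CPM in blood-like cells. Basement membrane chains had another order, at 304, 285 and 221 CPM in those 3 clusters against 581 CPM (544 to 620) in endothelial-like cells and 487 CPM (453 to 523) in extraembryonic endoderm-like cells. They were lowest in blood-like cells (26.2 CPM) and in the cluster led by Spi1 and Tyrobp (59.8 CPM), so blood-like cells were low in both groups of chains. The fibrillar share was 77.4% in the Lum and Dcn cluster, 15.6% in endothelial-like cells and 13.8% in extraembryonic endoderm-like cells. A cluster of 70 WT cells led by the red cell genes Slc4a1 and Alas2 had 559 CPM of fibrillar chains, and its cells had a median doublet score of 0.300 and a median of 14321 UMIs. A cluster of 335 cells led by Alpk3, with a median of 4883 UMIs, had 710 CPM. In 2 other clusterings, at resolution 0.4 and with the chains left in, a cluster led by Hpgd had 3 fibroblast markers and took that name. It held 2077 and 1711 WT cells, with fibrillar sums of 964 and 998 CPM. The unnamed clusters are not among the results compared in the closing section.

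In the TKO library no cluster came near the fibrillar sums of the 3 large WT clusters. They were 86.7 CPM in definitive endoderm-like cells, 92.4 CPM in the cluster led by T and Shh, 39.1 CPM in head mesenchyme-like cells, 34.9 CPM in cardiomyocyte-like cells and 16.5 CPM in pluripotent-like cells. Without Col2a1 the first of these became 20.2 CPM and the second 26.4 CPM. Basement membrane chains summed to 221, 258, 147, 165 and 91.4 CPM in the same order, and to 390 CPM (349 to 434) in endothelial-like cells. Every TKO cluster with at least 50 cells, head mesenchyme-like cells included, was thus far lower in fibrillar chains than the 3 large WT clusters. Definitive endoderm-like, head mesenchyme-like and cardiomyocyte-like cells and the T and Shh cluster read above WT blood-like cells only with Col2a1 counted. Without it they read 20.2, 22.4, 24.9 and 26.4 CPM, against 29.3 CPM (24.2 to 35.2) in WT blood-like cells. Of these 4, only definitive endoderm-like cells (17.8 to 23.0) had an interval wholly below that of blood-like cells. With Col2a1, the intervals of head mesenchyme-like and cardiomyocyte-like cells overlap that of blood-like cells.

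**Figure D2:**
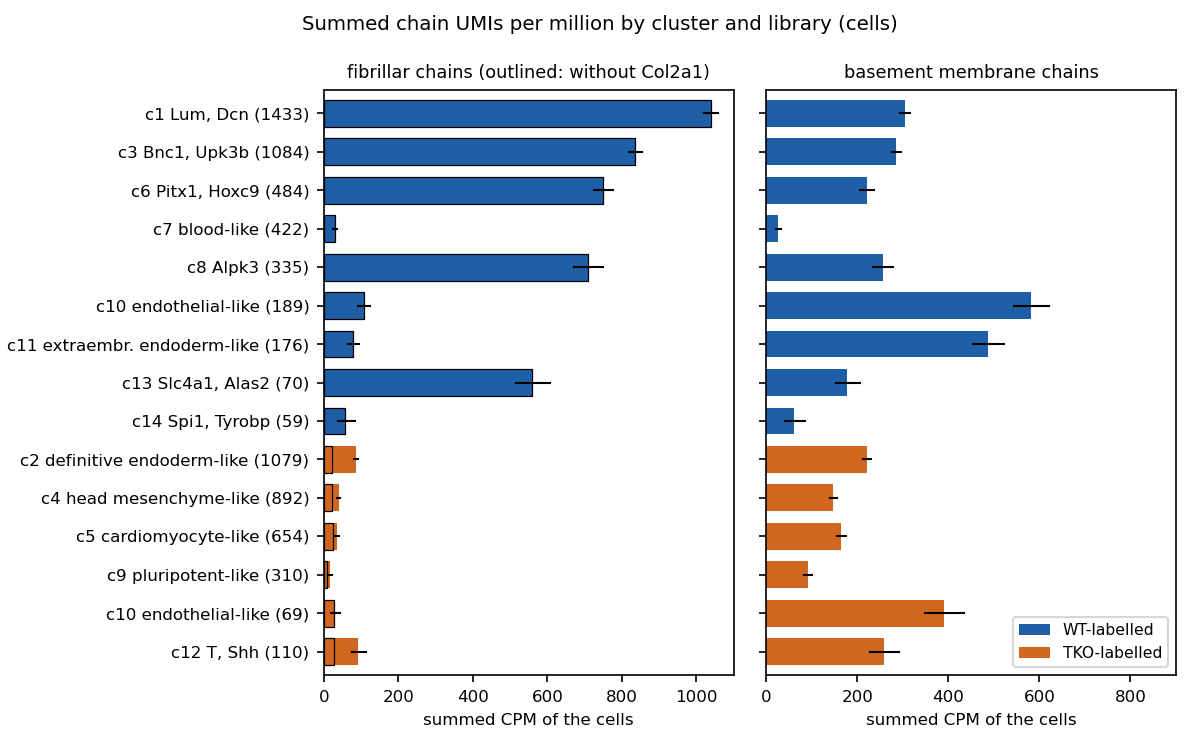
Summed CPM of the 11 fibrillar (left) and 19 basement membrane (right) chains in each cluster and library with at least 50 cells (number of cells in parentheses), with 95% counting intervals, WT above and TKO beneath. Outlined bars leave out Col2a1; fibrillar sums reach 1039 CPM in WT cells and at most 92.4 CPM in TKO ones, while endothelial-like cells have the highest basement membrane sum in either library.

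Cells were also grouped by their own markers, regardless of cluster. Of cells with UMIs of at least 4 fibroblast markers and of more of these than of any other list, 2061 were WT and 168 TKO. Their fibrillar sums were 1027 and 49.9 CPM and their basement membrane sums 297 and 154 CPM. Most of the WT cells lay in the Lum and Dcn cluster (1028) and the Bnc1 and Upk3b cluster (676), and most of the TKO ones in the head mesenchyme-like cluster (122), so they are not one population. Cells chosen by lateral mesoderm markers (632 and 242) had fibrillar sums of 597 and 46.2 CPM and basement membrane sums of 244 and 153 CPM. The WT ones lay mainly in the Bnc1 and Upk3b (202), Pitx1 and Hoxc9 (175) and Lum and Dcn (168) clusters and the TKO ones in the cardiomyocyte-like (136) and head mesenchyme-like (87) clusters, so these too are not one population. Cells chosen by epithelial markers (119 and 887) had fibrillar sums of 81.9 and 85.1 CPM and basement membrane sums of 414 and 227 CPM, most lying in the extraembryonic endoderm-like cluster (81 cells) in the WT library and the definitive endoderm-like cluster (802 cells) in the other. Without Col2a1 the fibrillar sums of these cells were 75.9 and 19.4 CPM, a 3.92-fold difference (2.97 to 5.14).

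Single chains had distinct places. In the WT library Col1a1 (216 CPM), Col3a1 (393 CPM) and Col5a1 (68.7 CPM) were highest in the Lum and Dcn cluster, and Col1a2 (318 CPM) in the Pitx1 and Hoxc9 cluster. Col4a1 (157 CPM), Col4a2 (217 CPM), Nid1 (74.5 CPM) and Col18a1 (346 CPM) were highest in endothelial-like cells, and Lamb1 (80.6 CPM), Lama5 (27.7 CPM) and Col4a6 (21.9 CPM) in extraembryonic endoderm-like cells. Nid1 read 0.645 CPM in extraembryonic endoderm-like cells, where Nid2 read 31.0 CPM. In the TKO library Col2a1 was highest in definitive endoderm-like cells (66.4 CPM) and in the T and Shh cluster (66.0 CPM), T and Shh being genes of the notochord and node, and read 3.54 CPM in endothelial-like cells. Lama1 (14.8 CPM) was highest in head mesenchyme-like cells, Lama5 (27.7 CPM) and Col7a1 (5.73 CPM) in definitive endoderm-like cells, Nid2 (43.7 CPM) and Col9a3 (20.3 CPM) in the T and Shh cluster, and Col13a1 (21.2 CPM) in cardiomyocyte-like cells. Col23a1 stood at 105 CPM in endothelial-like and 103 CPM in head mesenchyme-like cells, against 5.82 CPM in definitive endoderm-like cells. The map of chains by cluster shows these as separate blocks.

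**Figure D3:**
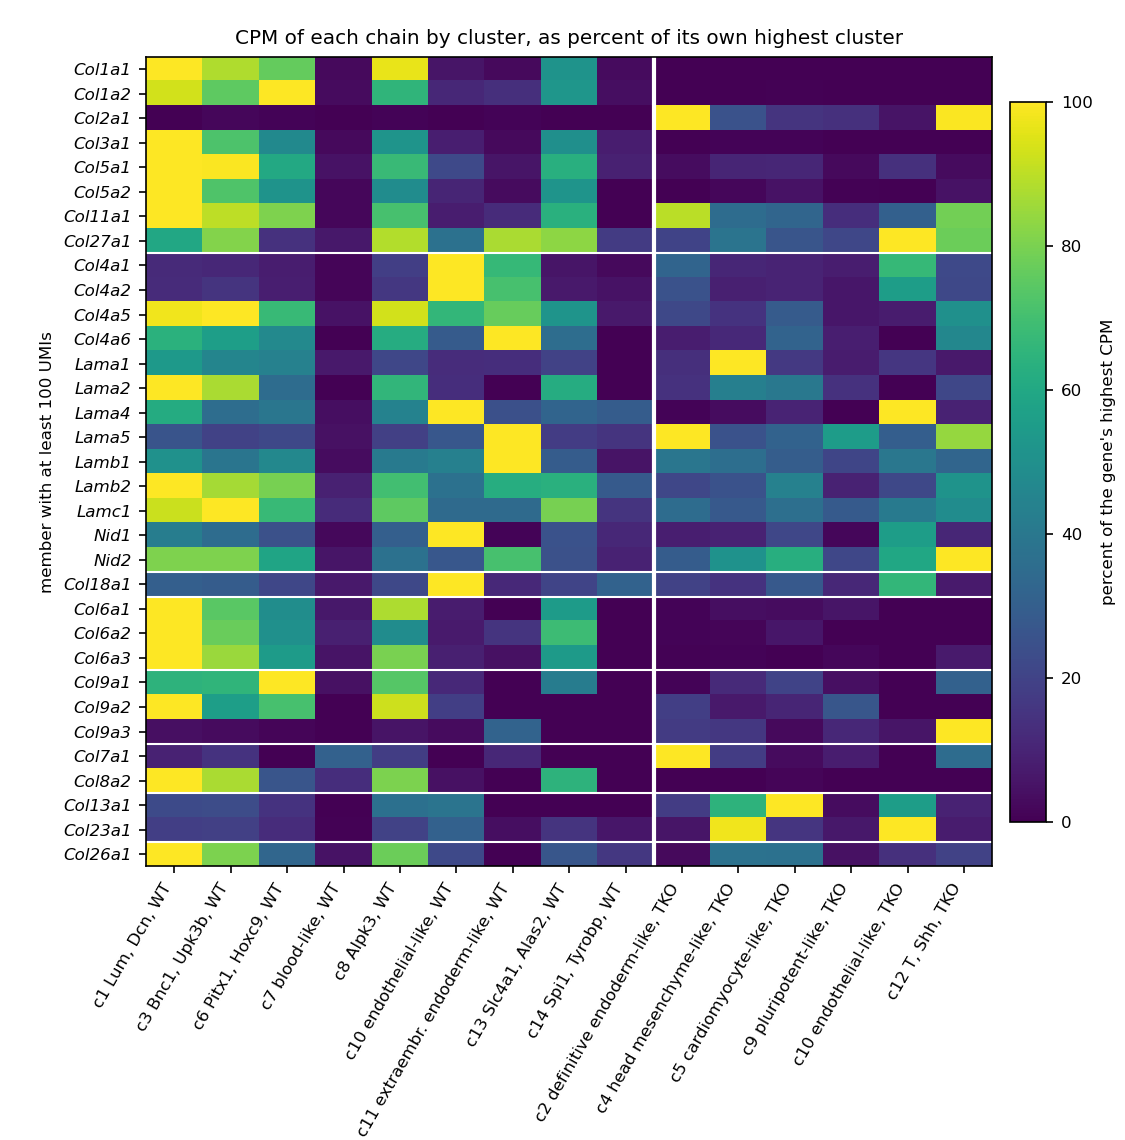
CPM of each chain with at least 100 UMIs (rows) in each cluster and library with at least 50 cells (columns), as percent of that gene's own highest cluster, WT clusters left of the white line. Type I, III, V and VI chains are bright in the WT Lum and Dcn, Bnc1 and Upk3b, Pitx1 and Hoxc9, and Alpk3 clusters and dark right of the line, whereas Col4a1, Col4a2, Nid1 and Col18a1 are brightest in endothelial-like cells.

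Cells with at least 1 UMI were counted after thinning each cell to 4000 UMIs, a step that dropped 372 WT cells and 190 TKO cells with fewer UMIs. A UMI of type I or III collagen was found in 65.2% (63.7 to 66.7) of the 4017 remaining WT cells. The share was 1.13% (0.785 to 1.58) of 3006 TKO cells. Without thinning the shares were 74.8% and 2.07%. WT blood-like cells, which should lack these collagens, had 10.3% (7.44 to 13.8) after thinning and 17.1% before, with a median of 9101 UMIs. The source of these UMIs was not tested. In the TKO library 0 of 20 thinned blood-like cells had one. There 3 cells, the limit taken for a count of 0, would be 15% (exact upper limit 16.8%). Blood-like cells were thus too few to set a background for that library. Among other thinned TKO cells, 0 of 295 in the larger pluripotent-like cluster had one. The same held for 0 of 106 in the T and Shh cluster and 0 of 66 endothelial-like cells. Of 1013 definitive endoderm-like cells, 99.9% had none. Head mesenchyme-like and cardiomyocyte-like cells had up to 2 per cell. Col2a1 was found in 0.174% of WT and 10.8% (9.76 to 12.0) of TKO cells (0.661% and 21.7% without thinning), and Col4a2 in 12.5% of either (21.2% and 25.6% without thinning). In WT blood-like cells Col2a1 was found in 0 of 378 thinned cells, where 3 cells, the limit taken for a count of 0, would be 0.794% of cells with a UMI (exact upper limit 0.971%), and Col4a2 in 1.32% after thinning. Per thinned cell of the Lum and Dcn cluster the median was 3 type I and III UMIs, with quartiles of 1 and 5 and a maximum of 32, whereas no TKO cell had more than 3.

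The TKO library held 111 unthinned type I and III UMIs in 66 cells. Of these UMIs, 35 lay in cardiomyocyte-like and 33 in head mesenchyme-like cells. A further 18 lay in 5 of the 12 TKO cells of the Bnc1 and Upk3b cluster, 9 in 1 of the 4 in the Pitx1 and Hoxc9 cluster and 9 in 4 of the 9 in the Alpk3 cluster. These few cells carried 16.2%, 8.11% and 8.11% of the library's type I and III UMIs. Definitive endoderm-like cells had 4, and endothelial-like cells and the T and Shh cluster had 0.

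Fibroblast feeders also make fibrillar collagen, so genes they may carry were read in the same cells. A list of 12 such genes summed to 270 CPM in the Lum and Dcn cluster (10 of 12 with a UMI, Ccl7 and Ly6c1 at 0), 211 CPM in the Bnc1 and Upk3b cluster (12 of 12) and 97.7 CPM in the Pitx1 and Hoxc9 cluster (10 of 12, Ccl7 and Lox at 0). It summed to between 13.9 and 386 CPM in TKO clusters. S100a6 alone held 81.2%, 81.0% and 74.0% of the first 3 sums, which were 50.8, 40.1 and 25.4 CPM without it. Over all clusters and libraries with at least 50 cells, the sum without S100a6 ran from 3.82 CPM (WT blood-like) to 136 CPM (WT extraembryonic endoderm-like). Xist, read apart from the list, had 1, 2 and 1 UMIs in the first 3 clusters. A list of 13 proliferation genes, which arrested feeders should lack, summed to 433 CPM in the Lum and Dcn cluster, 2722 CPM in the Bnc1 and Upk3b cluster and 1274 CPM in the Pitx1 and Hoxc9 cluster. Elsewhere in the WT library it summed to 1773 CPM in blood-like cells, 711 CPM in extraembryonic endoderm-like cells and 470 CPM in the Alpk3 cluster. In the TKO library it ran from 338 CPM (T and Shh cluster) to 1883 CPM (head mesenchyme-like cells). The part of feeder cells in the fibrillar level of the 3 large WT clusters was not tested.

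At resolution 0.8, endothelial-like cells were the only named kind with at least 50 cells of each library, 189 and 69, and were compared directly. At resolution 0.4 a cardiomyocyte-like cluster, with Alx1 also among its leading genes, had 52 WT and 1602 TKO cells. Its fibrillar sums were 172 and 37.7 CPM and its basement membrane sums 207 and 159 CPM. The endothelial-like cluster's leading genes included Cdh5, Cldn5, Emcn and Icam2, and its median cell had 7183 and 11307 UMIs. Of the 22 chains with at least 10 UMIs in endothelial-like cells, 6 were at least 2-fold lower in TKO cells, 3 were higher and 13 lay within 2-fold. Among 9457 genes, 7.72% were at least 2-fold lower and 8.29% higher. The median log2 ratio was -0.58 for the chains and 0.11 for all genes. Fibrillar chains summed to 107 CPM and 29.5 CPM, a TKO to WT ratio of 0.276 (0.174 to 0.421). Basement membrane chains summed to 581 and 390 CPM, a ratio of 0.671 (0.590 to 0.761).

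Col1a1, Col1a2 and Col3a1 had 20, 57 and 53 UMIs in WT endothelial-like cells and 0 in TKO ones. A type I or III UMI was found in 12.3% (7.66 to 18.3) of thinned WT endothelial-like cells and in 23.3% (17.5 to 30) of unthinned ones. The shares in WT blood-like cells, 10.3% (7.44 to 13.8) and 17.1% (13.6 to 21.0), overlap these in their intervals. By level, Col1a2 and Col3a1 read 35.7 and 33.2 CPM in WT endothelial-like cells against 8.92 and 9.43 CPM in WT blood-like cells. Col1a1 differed less, at 12.5 CPM (7.65 to 19.3) against 5.35 CPM. The Col1a2 and Col3a1 differences exceed the counting error of the summed UMIs. Those UMIs lay in 22 and 30 of the 189 cells, and such intervals do not cover the spread between cells. Whether endothelial-like cells make these chains was not tested. Col4a1 had 157 and 105 CPM, a 1.49-fold difference (1.16 to 1.92), and Col4a2 had 217 and 121 CPM, a 1.80-fold difference (1.44 to 2.27). Over all cells their ratios were 1.19 and 0.928. Col4a5 had 32 and 2 UMIs, a ratio of 0.118 (0.0137 to 0.462), and Col4a6 had 10 and 0. Nid1 had 74.5 and 41.4 CPM, a 1.80-fold difference (1.23 to 2.71), whereas Nid2 had 19 and 22 UMIs, 2.18-fold higher (1.13 to 4.27). Col18a1 had 346 and 229 CPM, a 1.51-fold difference (1.28 to 1.79). The endothelial alpha chain Lama4 had 21.3 CPM in both, a ratio of 0.999 (0.531 to 1.82), and Lamb1 and Lamc1 had ratios of 0.909 (0.552 to 1.46) and 1.19 (0.635 to 2.19). Col15a1 had 14 and 0 UMIs. Col23a1 had 52 and 89 UMIs, 32.6 and 105 CPM, 3.23-fold higher (2.27 to 4.64). Col27a1 had 7 and 10 UMIs, a ratio of 2.69 (0.926 to 8.34). Lama4, 7.16-fold lower over all cells, did not differ here by a size that could be seen at this depth.

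**Figure D4:**
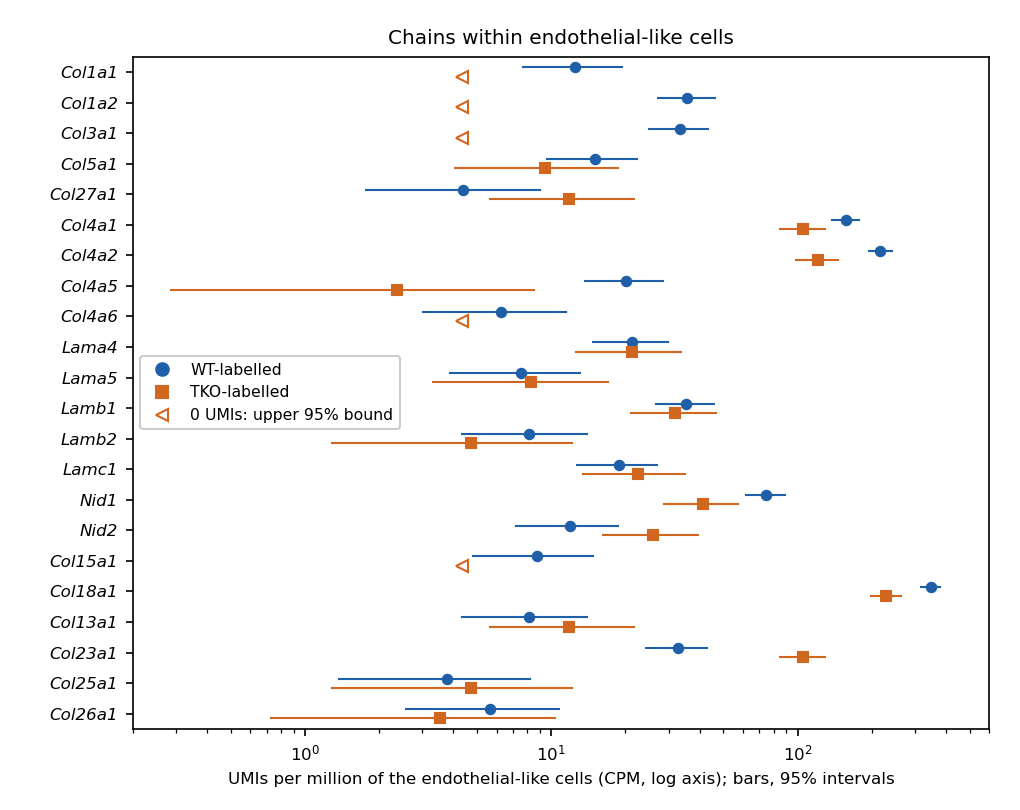
CPM (log axis) of the 22 chains with at least 10 UMIs within the 189 WT (circles) and 69 TKO (squares) endothelial-like cells, with 95% counting intervals and open triangles at the upper bound where a chain had 0 UMIs. Lama4, Lamb1 and Lamc1 overlap, Col4a1, Col4a2, Nid1 and Col18a1 are somewhat lower in TKO cells and Col23a1 is higher.

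Genes that handle collagen were read from 4 lists of the pathway. Their counts stand beside 12.3% of all genes at least 2-fold lower and 13.5% higher, with a median log2 ratio of 0.14. Of the folding and modification genes, 13 of 21 with at least 10 UMIs were at least 2-fold lower in the TKO library and 1 was higher, with a median log2 ratio of -1.34. Creb3l1, a transcription factor of collagen secretion, had 69.8 and 3.91 CPM, a 17.8-fold difference (15.0 to 21.4), and Fkbp10, a collagen chaperone, had 59.2 and 4.39 CPM. P3h2, a prolyl hydroxylase that acts on type IV collagen, had 5.23 and 13.8 CPM, 2.63-fold higher (2.22 to 3.13), and Ppib, a general folding enzyme, had 447 and 410 CPM. Of the trimming and crosslinking genes, 7 of 11 were lower and 0 higher, with a median of -1.86. Adamts2, which trims the ends of fibrillar procollagen, had 39.6 and 2.81 CPM, a 14.1-fold difference (11.4 to 17.6), and Pcolce, an enhancer of procollagen trimming, had 34.2 and 3.85 CPM. The crosslinking enzyme Lox had 22 and 0 UMIs. Pxdn, which crosslinks type IV collagen, had 50.5 and 48.5 CPM. Bmp1, which trims fibrillar procollagen at its other end, had 11.7 and 10.5 CPM, so not every enzyme of fibre assembly was lower.

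Of the receptors for collagen and laminin, 5 of 11 were lower and 1 was higher, with a median of -0.65, against the same 12.3% and 13.5% of all genes. Ddr2, a receptor of fibrillar collagen, had 84 and 8 UMIs, and Itga1, a collagen-binding integrin chain, had 120 and 20 UMIs. Itga6, an integrin chain that binds laminin, had 182 UMIs (4.85 CPM) and 705 UMIs (21.1 CPM), 4.34-fold higher (3.68 to 5.14). Of the basement membrane partners, 5 of 14 were lower and 5 higher, with a median of -0.34. Smoc2 had 209 and 6.78 CPM, a 30.9-fold difference (27 to 35.4), and Sparc, a collagen-binding protein, had 991 and 322 CPM. Smoc1 (1.55 and 11.1 CPM) and Frem2 (0.960 and 8.72 CPM), a protein of epithelial basement membranes, were higher, and Ntn1 had 1 and 93 UMIs, a ratio of 104 (18.2 to 4158).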

How the data were processed

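For the day 5 libraries the authors deposited tables of unnormalised counts, whole numbers taken as UMIs. Seurat 3, BSMAP, MACS2, DESeq2 and mm10 appear, with no role stated, in the submitters' processing notes. The chemistry, aligner, counter and earlier filters are not stated in any source used here. The TKO table named 3224 barcodes but held 3223 values per row, so cells were read by position, and 116 row names that differed in their ending were matched by position.

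Cells with at least 500 genes, 1000 UMIs and at most 15% mitochondrial UMIs were kept (3 and 26 removed for mitochondrial UMIs). The doublet caller (Scrublet in scanpy 1.11.5) marked 3 and 1 cells, 0.0683% and 0.0313%, so it did not work and doublets remain. Clusters came from 2000 variable genes without the 57 chains, 30 components, 15 neighbours and Leiden resolution 0.8. Names needed 3 markers among the 10 leading genes. UMIs were summed per library and kind. Log2 ratios used a prior count of 0.5, the limit taken for a count of 0 in a share was 3 counts, and intervals were exact (Poisson, Clopper-Pearson, binomial for ratios; scipy 1.17.1), and the code was tested on simulated data. Chains with at least 100 UMIs were named with values, and scarcer ones by range, counts or UMIs; up to 3 pathway genes at either end of the log2 ratio of their list, with at least 20 UMIs, were named. The members, gene lists and markers were chosen with earlier results of these data known. The values of 1 chain are not reported here. Alternatives are given in the closing section.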

Additional observations from a re-analysis of the deposited data

How the results depend on the processing

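Across 33 results and 19 settings, 149 alternative values were computed. Of these, 121 stayed within the interval of the reported value (counts of chains within 1.5 times) and 28 moved outside it. A change of direction was looked for only in TKO to WT ratios and median log2 ratios, and 0 of these changed. For shares, counts of chains, and sums by cell kind, a change of direction was not defined. For median log2 ratios the interval of the reported value came from the ranks of the chains' ratios, and for the other values from counting error. For the fibrillar median it ran from -8.74 to 1.05, so staying within it says little about that median. The fibrillar TKO to WT ratio of 0.0781 became 0.0709 with median-of-ratios size factors, 0.0743 with each cell weighted equally, 0.113 without the chain with most UMIs of its group and 0.0307 without Col2a1. The basement membrane ratio of 0.679 became 0.617 with size factors and 0.637 without the chain with most UMIs. The fibrillar share was 72.8% in the WT library without the 5% of cells with most UMIs, 72.9% with cells weighted equally, 66.5% (TKO 26.1%) without the chain with most UMIs of each group and 65.5% (17.9%) with Col15a1 and Col18a1 counted as basement membrane. Without Col2a1 the TKO share was 10.4%. Scaling does not enter these shares. With cells chosen by their own markers, the basement membrane sum was 74.2 CPM and the fibrillar share 69.8% in blood-like cells (26.2 CPM and 53.0% by cluster), and the basement membrane sums of TKO cells were 231 CPM in definitive endoderm-like and 163 CPM in head mesenchyme-like cells. Shares of cells with a UMI depend on depth: type I or III was found in 74.8% and 2.07% without thinning and in 52.1% and 0.501% at 2000 UMIs, Col2a1 in 0.661% and 21.7% without thinning and in 5.48% of TKO cells at 2000, and Col4a2 in 21.2% and 25.6% without thinning and in 6.43% and 6.45% at 2000. Size factors moved the median log2 ratio of all genes by -0.14, gave 27 chains at least 2-fold lower and 6 higher, and turned the Lama1 log2 ratio from 0.06 to -0.08. Lama1 by itself was not among the 33 results. Leaving out Col2a1, the Slc4a1 cluster or the Alpk3 cluster was chosen after the data were seen, and neither cluster moved a result. The causes of these moves were not tested. No paired analysis was possible because each group had 1 library. Chains with few UMIs are limited by depth: with 0 UMIs in the TKO library the exact upper 95% bound is 0.110 CPM.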
